A study of Mus musculus with 22 samples.

Results

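The core clock genes described here are 10 of the 31053 genes counted in each library: Arntl, Per1, Per2, Per3, Cry1, Ciart, Nr1d1, Nr1d2, Dbp and Tef. They were taken as a list of names, which was proposed with earlier results of these data known, and all 10 were detected. The study asked how loss of Nalcn, the gene of a sodium leak channel, affected the shedding of cells into the blood, and profiled single cells of mice without tumours in 22 droplet libraries. Of these, 10 held ZsGreen+ cells sorted from peripheral blood (ntCZC, non-tumour circulating ZsGreen+ cells), 11 held pooled kidney, liver, lung and stomach with epididymis in males or uterus in females (tissue), and 1 held unsorted peripheral blood mononuclear cells (PBMC). Every mouse was of the strain Prom1-CreERT2;Rosa26ZSG on a mixed background, in which tamoxifen activates a recombinase under the Prom1 promoter and turns on the ZsGreen tag in Prom1-expressing stem and progenitor cells and their descendants. Mice labelled het or null also carried Nalcn-het or Nalcn-null alleles, whereas those labelled wt carried no modified Nalcn allele in their strain entry. The ntCZC libraries were 2 wt (males of 571 and 608 days), 4 het (males of 610, 551 and 551 days and a female of 649 days) and 4 null (a male of 552 days and females of 551, 612 and 613 days). The tissue libraries were 5 wt (males of 571, 571 and 608 days, females of 611 and 654 days), 2 het (both males of 551 days) and 2 null (a male of 552 days and a female of 611 days). The PBMC library came from a wt male of 120 days. For a further 2 tissue libraries the title named 1 genotype and the strain another, and they entered no comparison between groups. They are called A (male, 610 days) and B (female, 647 days). The hour of the day at which each mouse was killed is not given in the sources used here, nor is the age at which each received tamoxifen.

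The circadian clock of mammalian cells is a transcriptional feedback loop. ARNTL (also called BMAL1) pairs with CLOCK and activates genes through E-boxes, among them the period genes Per1, Per2 and Per3, the cryptochrome gene Cry1, Ciart (a repressor also called CHRONO), the nuclear receptor genes Nr1d1 and Nr1d2 (REV-ERB alpha and beta) and Dbp, and PER, CRY and CIART proteins then hold ARNTL and CLOCK in check. NR1D1 and NR1D2 repress Arntl through ROR response elements, which places the peak of Arntl mRNA at about the opposite phase to that of Dbp, Nr1d1 and Per mRNA in peripheral organs, and DBP and TEF act on D-boxes as output factors.

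These response elements are printed because they are the route by which members of the list act on each other. RefSeq promoter windows of the build GRCm38.p6, reaching from 250 bases upstream to a short stretch downstream of each annotated start, were at hand for 9 of the 10 genes, and 7 of these held at least 1 match. The letters searched on both strands were CACGTG (E-box), CACGTT (a variant called E′-box), TTANGTAA (D-box) and the ROR response element, and none of the matches overlapped. Over all 32851 promoters in that table, 7.15% held the E-box, 4.68% the E′-box, 2.32% the D-box and 0.384% the ROR response element. Each stretch below is written 5′ to 3′ on the strand of its gene, with the matching letters in capitals.
Arntl, ROR response element, chr7:113207529-113207555, plus strand: gaaggcagAAAGTAGGTCAgggacgga
Per1, E-box, chr11:69098771-69098800, plus strand: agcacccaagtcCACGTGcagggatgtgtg
Per3, D-boxes, chr4:151044804-151044882, minus strand: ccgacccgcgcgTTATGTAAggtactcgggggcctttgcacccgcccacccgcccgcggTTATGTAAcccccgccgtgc
Cry1, E′-box and E-box, chr10:85185097-85185145, minus strand: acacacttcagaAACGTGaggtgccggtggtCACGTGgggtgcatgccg
Ciart, E-boxes, chr3:95882255-95882356, minus strand: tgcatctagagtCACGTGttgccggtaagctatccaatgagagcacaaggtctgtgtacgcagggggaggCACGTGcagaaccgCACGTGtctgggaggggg
Nr1d1, E′-box, chr11:98775388-98775417, minus strand: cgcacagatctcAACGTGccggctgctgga
Tef, E-box at the upstream start, chr15:81802534-81802563, plus strand: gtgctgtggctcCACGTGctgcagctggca
Tef, E-box at the downstream start, chr15:81811264-81811293, plus strand: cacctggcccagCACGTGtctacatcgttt
The windows of Dbp and Nr1d2 held none of these letter strings, which says nothing of elements elsewhere in either gene. A match is a string of letters and was not tested for binding. In the mm10 annotation Arntl lies at chr7:113207465-113314126 and Dbp on the same chromosome at chr7:45705088-45710203, both on the plus strand, and all 10 genes are annotated as protein coding.

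Levels are given as CPM, the unique molecular identifiers (UMIs, 1 for each captured transcript) of a gene per 1000000 UMIs of a library, summed over barcodes in which 200 or more genes were detected and no more than 25% of UMIs were mitochondrial. Of 179929 barcodes 95843 passed, and passing UMIs ran from 34737 to 2433965 in ntCZC libraries and from 2025440 to 96536623 in tissue libraries. In ntCZC wt replicate 3 only 11 barcodes passed, and it was left out of every test over passing barcodes, which leaves 1 wt, 4 het and 4 null ntCZC libraries. A count of 3 UMIs, the most that a count of 0 allows, equals 1.23 CPM in the deepest ntCZC library and 12.6 CPM in the shallowest that was tested, ntCZC null replicate 3. Nalcn itself had 0 UMIs in every ntCZC library and 0 to 18 in tissue libraries, and tags at the 3′ end do not show whether its alleles had been recombined. Up to 2.6% of the barcode sequences of 1 library recurred in another, and n counts libraries, since no animals are named and libraries of the same genotype, age and sex may share a mouse. A sum over a library cannot tell fewer cells of a type from less RNA per cell.

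The libraries differed in cell makeup, and this was measured with fixed marker genes. A barcode was called X-like when it had UMIs of at least 3 markers of class X and at least 2 more than of any of the other classes, and 56.8% of passing barcodes were placed in 1 of 26 classes. Classes other than leukocytes were counted without platelet-, mesothelial-, gastric mucous-, epididymal epithelial- and kidney distal nephron-like barcodes, so that their share is a lower bound. So counted they made up 29.3% to 52.6% of placed barcodes in tissue libraries with a group and 0% to 1.1% in ntCZC libraries. Endothelial-like barcodes alone made up 17.7% to 38.3% in the former. The labelled sex was checked with Xist, which is transcribed from the inactive X chromosome of females, and with the summed Y-linked genes Ddx3y, Eif2s3y, Kdm5d and Uty. Libraries labelled male had 184 to 233 CPM of the Y-linked genes and at most 0.389 CPM of Xist, and libraries labelled female had 546 to 2178 CPM of Xist and, with 1 exception, at most 0.0728 CPM of the Y-linked genes. The exception was tissue null replicate 3, which held both, at 1318 CPM of Xist and 43.0 CPM of the Y-linked genes. It also held 348 epididymal epithelial-like barcodes, the most of any library, although its label lists uterus. Without it 5 clock genes passed between blood and tissue, Per1 being lost, r of Arntl with Dbp over tissue libraries was -0.66 as with it, and 0 clock genes passed between tissue genotypes either way.

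Between blood and tissue the largest changes among the clock genes were those of Per2 and Per3. In comparing ntCZC with tissue, 6 of the 10 clock genes passed the edgeR quasi-likelihood test (adjusted p under 0.05): Per1 was higher in ntCZC, and Per2, Per3, Cry1, Dbp and Tef were lower. Of the 10639 genes tested 62.8% passed, 35.3% lower and 27.5% higher in ntCZC, so 6 of 10 is close to the share among all genes. The median log2 change was -0.73 over the 10 genes and -0.08 over all genes tested. Nalcn genotype was not in this model, and het and null libraries made up more of the ntCZC than of the tissue libraries. Compartment and genotype therefore cannot be fully told apart here.

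**Figure D1:**
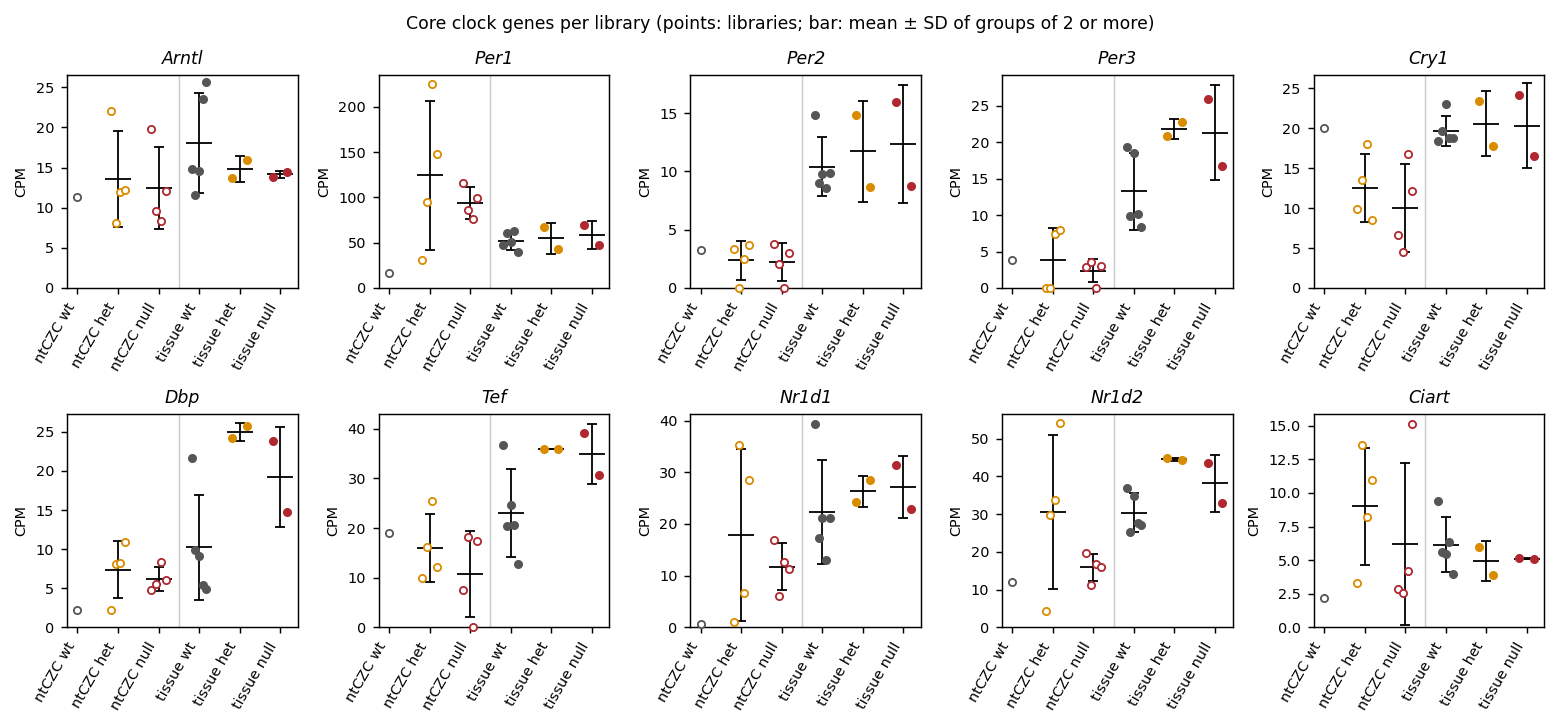
Level of each clock gene (CPM, vertical axes starting at 0) in each library, by group; open points are ntCZC, filled points tissue, and bars give the mean ± SD of groups with 2 or more libraries. Per2 and Per3 lie lower in all 9 ntCZC libraries than in all 9 tissue libraries, while Per1 runs from 16.2 to 225 CPM within ntCZC.

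Arntl, the activator, did not pass. It was 11.4 CPM in the ntCZC wt library, 22.1, 8.13, 12.1 and 11.9 in ntCZC het replicates 1 to 4 and 19.8, 9.63, 8.40 and 12.1 in ntCZC null replicates 1 to 4. In tissue it was 14.8, 11.6, 14.5, 23.6 and 25.7 CPM in wt replicates 1 to 5, 13.7 and 15.9 in het and 13.8 and 14.5 in null. The ranges overlapped, tissue wt replicates 4 and 5 were the highest of all, and the log2 change of ntCZC against tissue was -0.24 (SE 0.19, edgeR adjusted p 0.276).

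Among the repressors, Per1, which is also induced within minutes by stimuli such as glucocorticoids, was the one gene of the list that passed as higher in blood. It stood at 16.2 CPM in the ntCZC wt library, at 30.9, 94.9, 148 and 225 in het replicates 1 to 4 and at 116, 85.6, 75.6 and 99.2 in null replicates 1 to 4. In tissue it was 47.3, 60.9, 50.2, 63.0 and 39.5 CPM in wt replicates, 66.9 and 42.9 in the het libraries, and 69.2 and 47.1 in the null libraries. Thus 7 ntCZC libraries lay above every tissue library and 2 below, and the log2 change was 0.96 (SE 0.36, edgeR adjusted p 0.0274). The call rested on single libraries: without ntCZC het replicate 4 the log2 change was 0.56 (edgeR adjusted p 0.163), and without tissue null replicate 3 or tissue wt replicate 5 the adjusted p was 0.0534 or 0.0531. Without the filter on low counts it was 0.0534 as well. With a replicate block the log2 change of Per1 was -0.084 (edgeR adjusted p 0.891). Summed over 14 immediate early genes the level was 2844 to 7789 CPM in these ntCZC libraries and 5302 to 9604 in tissue, and over 8 glucocorticoid response genes it was 1009 to 2262 and 1249 to 2053. The part of either in the Per1 difference was not tested.

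Per2 and Per3, the other period genes, were lower in blood. Per2 ran from 0 through a median of 3.03 to 3.77 CPM in the 9 ntCZC libraries, on 33 UMIs in all, and from 8.55 through 9.75 to 15.9 CPM in the 9 tissue libraries (log2 change -1.90, SE 0.27, edgeR adjusted p 4.61e-06). Per3 ran from 0 through 3.03 to 7.90 CPM in ntCZC, on 52 UMIs, and from 8.39 through 18.5 to 26 CPM in tissue (log2 change -1.92, SE 0.36, edgeR adjusted p 0.000144). For both genes all 9 ntCZC libraries were below all 9 tissue libraries. Among 10629 genes 17.2% showed that ordering and 21.9% had no overlap in either direction. The 0 of ntCZC null replicate 3 allows up to 12.6 CPM and so does not by itself separate it from tissue.

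Of the remaining repressors Cry1 was lower in ntCZC and Ciart did not pass. Cry1 ran from 4.56 through 12.1 to 20 CPM in ntCZC and from 16.6 through 18.8 to 24.1 CPM in tissue, with 6 ntCZC libraries below every tissue library, and its log2 change was -0.68 (SE 0.20, edgeR adjusted p 0.00642). With a replicate block Cry1 no longer passed (-0.79, edgeR adjusted p 0.0972). Ciart ran from 2.16 through 4.2 to 15.1 CPM in ntCZC and from 3.86 through 5.43 to 9.41 CPM in tissue. ntCZC libraries lay on both sides of the tissue range, and the log2 change of 0.26 (SE 0.34, edgeR adjusted p 0.526) was within that spread.

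The REV-ERB genes, which repress Arntl, did not pass, with a wide spread among ntCZC libraries. Nr1d1 was 0.540 CPM in the wt library, 1.10, 35.2, 28.5 and 6.57 in het replicates 1 to 4 and 17.0, 6.08, 12.6 and 11.4 in null replicates 1 to 4, against 12.9 to 39.4 CPM in tissue. Its log2 change was -1.06 (SE 0.49, edgeR adjusted p 0.0660). Nr1d1 passed once ntCZC het replicate 2 (log2 change -1.34, edgeR adjusted p 0.0238), ntCZC het replicate 3 (-1.34, 0.0182) or tissue wt replicate 4 (-1.30, 0.0288) was left out, and also by DESeq2 (-1.04, adjusted p 0.0460) and over all deposited barcodes (-1.11, edgeR adjusted p 0.0430). Nr1d2 ran from 4.41 through 16.8 to 54.1 CPM in ntCZC and from 25.2 through 34.9 to 44.8 CPM in tissue (log2 change -0.60, SE 0.33, edgeR adjusted p 0.123), and passed without ntCZC het replicate 3, its highest library (-0.88, edgeR adjusted p 0.0065) and over all deposited barcodes (-0.79, edgeR adjusted p 0.0328). With a replicate block Nr1d2 passed too (-1.69, edgeR adjusted p 0.000725).

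Both output factors were lower in blood. Dbp was 2.16 CPM in the ntCZC wt library, 2.21, 8.13, 10.9 and 8.22 in het and 4.71, 5.57, 8.40 and 6.06 in null, and in tissue it was 21.6, 9.93, 9.17, 5.46 and 4.94 in wt replicates, 24.2 and 25.8 in the het libraries, and 23.8 and 14.7 in the null libraries. Tissue wt replicates 2 to 5 fell inside the ntCZC range, and the log2 change was -1.17 (SE 0.40, edgeR adjusted p 0.0160). Tef ran from 0 through 16.3 to 25.5 CPM in ntCZC and from 12.8 through 30.6 to 39.2 CPM in tissue (log2 change -0.79, SE 0.23, edgeR adjusted p 0.00569). When a barcode needed 500 genes and could hold no more than 10% of mitochondrial UMIs, Tef no longer passed (-0.52, edgeR adjusted p 0.056).

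With the sums restricted to barcodes of the 12 leukocyte-like classes, a comparison chosen after the whole-library values were seen, Per2 and Cry1 remained lower in ntCZC and the other differences did not pass. Of the 9367 genes then tested 49.1% passed, 24.4% lower in ntCZC. Ciart did not meet the count filter, and 2 of the other 9 clock genes passed. Per2 in leukocyte-like barcodes was 3.90 CPM in the ntCZC wt library, 3.72, 0, 3.83 and 2.78 in het and 4.42, 2.28, 0 and 3.38 in null, against 6.02 to 20.1 CPM in tissue (log2 change -2.02, SE 0.31, edgeR adjusted p 2.88e-05). Cry1 was 4.00 to 18.2 CPM in ntCZC and 15.2 to 29.9 CPM in tissue (log2 change -1.02, SE 0.22, edgeR adjusted p 0.0007). Per3 fell to a log2 change of -0.64 (edgeR adjusted p 0.159) and Dbp to -0.42 (0.391), Per1 was at 0.66 (0.130), and Tef (0.03), Nr1d1 (0.19), Nr1d2 (0.08) and Arntl (-0.08) were close to 0. The kinds of leukocyte still differed between the compartments: nonclassical monocyte-like barcodes made up 4.4% to 73.5% of those placed in the 9 tested ntCZC libraries and 0.4% to 4.4% in tissue. Alveolar macrophage-like barcodes were absent from ntCZC but for 1 barcode in het replicate 3, and in tissue they held 7.69% to 86% of the leukocyte-like Per2 UMIs. With that class left out as well, Per2 did not meet the count filter. It was then 3.51 CPM in tissue wt replicate 3, inside the ntCZC range of 0 to 4.42, and 4.87 to 16.7 CPM in the other tissue libraries. Cry1 still passed (4.00 to 18.2 CPM in ntCZC, 14 to 27.2 in tissue, log2 change -0.89, SE 0.23, edgeR adjusted p 0.00383), as 1 of 9 clock genes tested against 44.3% of 8927 genes. Per3 (-0.95, edgeR adjusted p 0.0528) and Dbp (-0.96, 0.0555) did not.

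**Figure D2:**
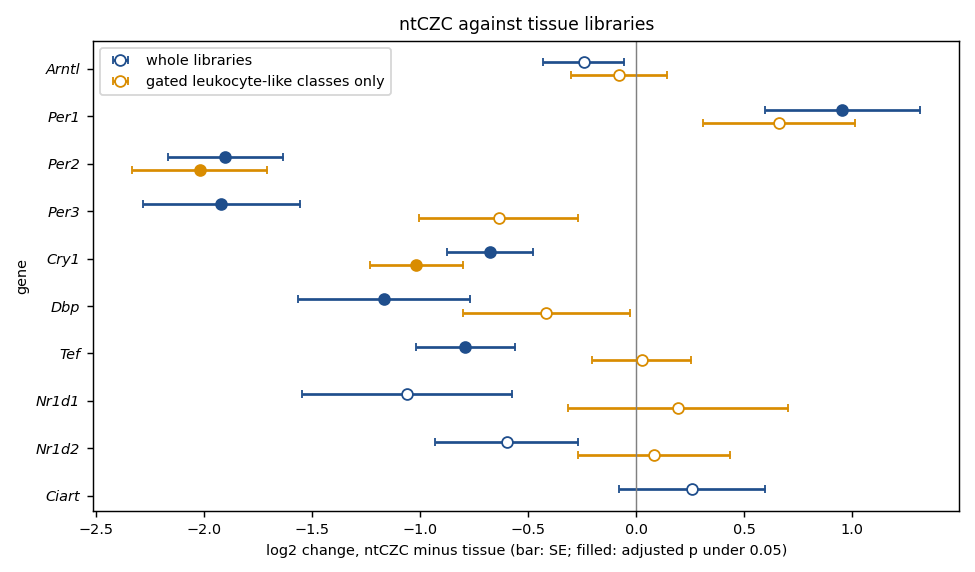
Log2 change of ntCZC against tissue libraries (horizontal axis, positive where ntCZC was higher) with its SE for each clock gene, over whole libraries (blue) and over leukocyte-like classes only (orange); filled points passed the edgeR test. Per2 and Cry1 stay to the left of 0 with filled points in both, at -1.90 and -2.02 and at -0.68 and -1.02, while Tef moves from -0.79 to 0.03.

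Within single classes few clock genes had enough counts. In nonclassical monocyte-like barcodes, 7 ntCZC against 7 tissue libraries, 29.9% of the 4301 genes tested passed and Per1 was the only clock gene that met the filter. It ran from 14 CPM in ntCZC wt replicate 1 to 279 CPM in ntCZC het replicate 4, and from 51.6 to 142 CPM in tissue, with a log2 change of 0.24 (SE 0.55, edgeR adjusted p 0.783). In B cell-like barcodes, 6 ntCZC against 8 tissue libraries, 35.9% of 5796 genes passed and 0 of the 4 clock genes tested did, with Cry1 at -1.07 (SE 0.50, edgeR adjusted p 0.0967), Tef at -0.72 (0.148), Nr1d2 at 0.08 and Per1 at 0.00. At an unadjusted p under 0.05 the count was 1 of the 4, Cry1, and DESeq2 also called Cry1 (log2 change -1.26, adjusted p 0.0475). Cry1 likewise passed without ntCZC null replicate 4 (-1.55, edgeR adjusted p 0.0269) or without tissue wt replicate 4 (-1.52, 0.0317). With a replicate block Per1 passed as lower in ntCZC in nonclassical monocyte-like (-1.61) and B cell-like barcodes (-2.22).

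Of 19 further clock pathway genes 14 were tested between whole ntCZC and tissue libraries, and 9 passed, a share close to the 62.8% of all genes. Nfil3, which encodes a repressor that competes with DBP and TEF at D-boxes, was higher in ntCZC (log2 change 1.03, SE 0.23). Cry2 (-0.76), Rora (-2.08), which activates through the element that NR1D1 occupies, Bhlhe41 (-1.97), Btrc (-0.53), Usp2 (-2.62), Wee1 (-2.32), Timeless (-2.0) and Hlf, the third gene of the Dbp and Tef family, were lower. In leukocyte-like classes 4 of 12 tested passed, Bhlhe41, Rora, Usp2 and Wee1, all lower in ntCZC, against 49.1% of all genes. In B cell-like barcodes Bhlhe40 (-2.07) and Nfil3 (-1.33) were lower, so that Nfil3 had opposite signs in the whole libraries and in this class. Of the 14 immediate early genes 3 were higher and 6 lower in whole ntCZC libraries, where 27.5% of all genes were higher and 35.3% lower, and of the 8 glucocorticoid response genes Tsc22d3 was higher and Cdkn1a and Fkbp5 were lower. In leukocyte-like classes 4 of these 8 were higher, Ddit4, Klf9, Tsc22d3 and Zbtb16, and Cdkn1a and Fkbp5 were lower. Of the 14 immediate early genes 2 were then higher and 4 lower, where 49.1% of all genes passed, 24.4% lower.

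Within tissue, each clock gene had its own order over the 11 classes that at least 6 libraries represented. Kidney proximal tubule-like barcodes held the highest Dbp, at 55 ± 37.3 CPM (SD, n = 8 libraries), the highest Tef, at 111 ± 43.1, and the highest Nr1d1, at 83.2 ± 34.7, and Nr1d2, at 69.1 ± 9.53. The same class held the lowest mean of Arntl, at 9.08 ± 6.67 CPM, the lowest Cry1, at 9.04 ± 6.33, and the lowest Per1, at 47.0 ± 16.1. The low end of Arntl was not resolved: classical monocyte-like and neutrophil-like barcodes had means of 9.56 and 9.80 CPM, and the neutrophil-like median of 3.84 CPM was below the proximal tubule-like median of 7.27 CPM, with tissue wt replicate 4 at 42.5 CPM on 5 UMIs.

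**Figure D3:**
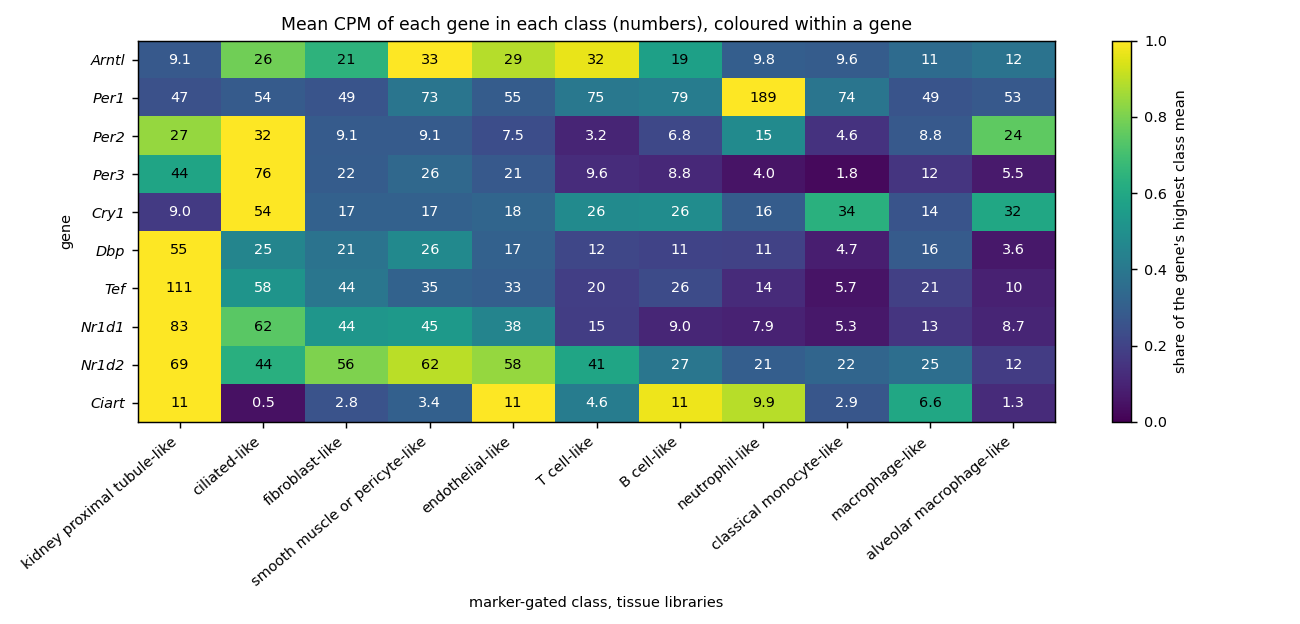
Mean level over tissue libraries (CPM, printed in each cell) of each clock gene (rows) in each marker-gated class (columns), coloured as a share of the highest class of that gene. Kidney proximal tubule-like barcodes lead for Dbp, Tef, Nr1d1 and Nr1d2, ciliated-like barcodes for Per2, Per3 and Cry1, and neutrophil-like barcodes for Per1.

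Ciliated-like barcodes led for Per3, Cry1 and Per2. Per3 was 75.9 ± 24.4 CPM there (SD, n = 7), Cry1 53.8 ± 19.9 and Per2 31.6 ± 9.40, followed by kidney proximal tubule-like barcodes for Per3 (44.3 ± 22.3) and Per2 (26.6 ± 9.41) and by classical monocyte-like barcodes for Cry1 (34.2 ± 15.3, n = 6). Per1 was highest in neutrophil-like barcodes, at 189 ± 67.0 CPM (SD, n = 6, range 122 to 310), ahead of B cell-like barcodes at 79.2 ± 23.3 (n = 8). Arntl had its highest means in smooth muscle or pericyte-like (32.7 ± 25.7, n = 6), T cell-like (31.6 ± 6.16, n = 8) and endothelial-like barcodes (29 ± 12.6, n = 9). The smooth muscle or pericyte-like mean rested on 32 UMIs, 9 of them from tissue wt replicate 4 at 75.6 CPM, and its median of 24.4 CPM was below the 31.1 of T cell-like barcodes. Ciart had no clear leader, with endothelial-like (11.0 ± 6.09 CPM), kidney proximal tubule-like (11.0 ± 7.38) and B cell-like barcodes (10.8 ± 6.47) close together.

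At the low end were leukocyte classes for some genes, and kidney proximal tubule-like barcodes for the means of Arntl, Cry1 and Per1. Ciart was lowest in ciliated-like barcodes, at 0.502 ± 1.04 CPM (SD, n = 7, on 2 UMIs). Alveolar macrophage-like barcodes had the lowest Dbp (3.58 ± 1.87 CPM, n = 8) and Nr1d2 (12.4 ± 2.54), yet the third highest Per2, at 23.7. Classical monocyte-like barcodes had the lowest Per3 (1.83 ± 2.03, n = 6, on 5 UMIs), Tef (5.71 ± 3.95) and Nr1d1 (5.30 ± 3.34). T cell-like barcodes had the lowest Per2, at 3.21 ± 2.65 CPM (n = 8, 25 UMIs), beside the second highest mean of Arntl.

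Neighbours in these orders could not be separated after adjustment. Over the 100 pairs of neighbouring classes, 7 had an exact two-sided sign-flip permutation p under 0.05 and 0 passed after Benjamini-Hochberg adjustment, where the smallest adjusted p was 0.391. With 5 to 9 libraries per pair the test can give no p below 0.0625 to 0.00391. Among pairs with the smallest unadjusted p, Nr1d1 was higher in endothelial-like than in T cell-like barcodes in 8 of 8 libraries (mean log2 difference 1.35, exact permutation p 0.00781), and Per1 was higher in neutrophil-like than in B cell-like barcodes in 6 of 6 (1.41, exact permutation p 0.0312). Markers of other classes were also found in gated barcodes: in endothelial-like barcodes of tissue wt replicate 2 the summed markers of club cells stood at 5788 CPM beside 5598 for endothelial markers. Doublets were kept in the main setting. Without barcodes marked as doublets by Scrublet, 14 of 70 pairs had an unadjusted permutation p under 0.05. After adjustment 0 passed, and the smallest adjusted permutation p was 0.0781. Free RNA and remaining doublets were not told apart, and the part of either in the class levels of the clock genes was not tested.

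The phase relation of Arntl to its target genes was read across the 9 tissue libraries with a group, and among these it rested on 2. Arntl was highest, at 23.6 and 25.7 CPM, in tissue wt replicates 4 and 5, where Dbp was lowest, at 5.46 and 4.94 CPM. The other 7 libraries held Arntl within 11.6 to 15.9 CPM, over which Dbp still ran from 9.17 to 25.8 CPM. Over all 9 libraries Pearson's r of Arntl with Dbp on the log2(CPM + 1) scale was -0.66 (exact permutation p 0.0436) and Spearman's rho -0.42 (exact permutation p 0.270), and adjusted over the 18 relations tested p was 0.392 and 0.813.

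**Figure D4:**
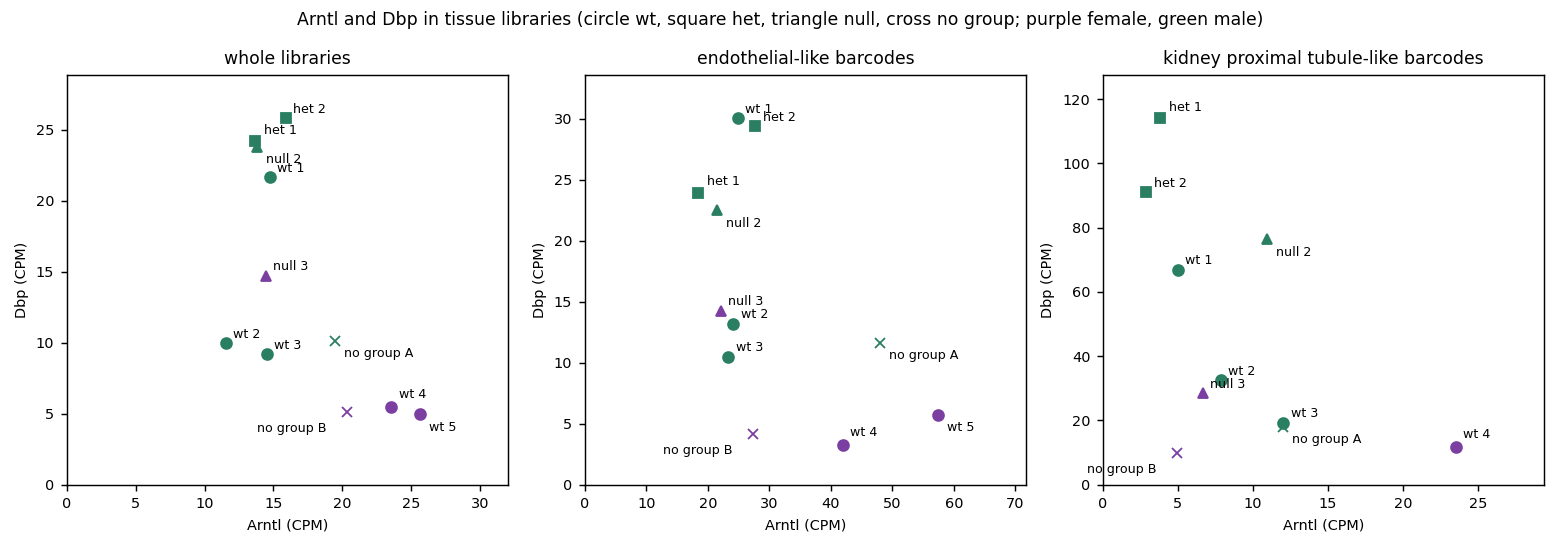
Dbp against Arntl (both in CPM) in each tissue library, over whole libraries, endothelial-like barcodes and kidney proximal tubule-like barcodes; shapes give the genotype and colours the sex. Tissue wt replicates 4 and 5 lie at the lower right of the first 2 panels, and in the first panel the other libraries with a group vary in Dbp within 11.6 to 15.9 CPM of Arntl.

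All other members had r below 0 with Arntl as well. Tef was at -0.63, Per3 at -0.55, Per1 at -0.38, Nr1d2 at -0.38, Nr1d1 at -0.37, Per2 at -0.32, Cry1 at -0.31 and Ciart at -0.25, and 0 of the 9 relations passed after adjustment. Among 9272 genes with a mean of at least 10 CPM, Dbp was at the 9.73 percentile of r with Arntl, Tef at 11.9 and Per3 at 16.3. Per1, Nr1d2, Nr1d1, Per2 and Cry1 were at 25.6 to 29.2. An r of -0.11, that of Nfil3, was at the 40.3 percentile, so values below 0 were common among all genes. Without tissue wt replicates 4 and 5, the libraries farthest from the median of Arntl, r turned to 0.50 for Dbp, 0.65 for Tef, 0.75 for Per3, 0.61 for Nr1d1 and 0.68 for Nr1d2, while for Per1 it was -0.66. Both libraries came from females, and only 1 other female library had a group. Within the 6 male libraries r of Arntl with Dbp was 0.53 (exact permutation p 0.315). With library A, which had the highest Arntl of the males, it was -0.05 (exact permutation p 0.884, n = 7). The 3 female libraries with a group were too few for a value of their own. With A and B added to the 9 libraries, r without tissue wt replicates 4 and 5 was -0.44.

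Values inside endothelial-like barcodes, which every tissue library held, were read as well. They are a part of the same library sums and no separate observation. There Arntl was 24.9, 24.1, 23.3, 41.9 and 57.4 CPM in tissue wt replicates 1 to 5, 18.5 and 27.7 in het and 21.4 and 22.1 in null. Dbp in these barcodes was 30, 13.2, 10.5, 3.27 and 5.74 CPM in wt replicates, 24.0 and 29.4 in the het libraries, and 22.5 and 14.3 in the null libraries. Here wt replicate 5 rested on 29 barcodes, with 1 UMI of Dbp and 0 of Per3, so that its low rank in either was not resolved. Among libraries with a group, tissue wt replicates 4 and 5 had the highest Arntl and the lowest Dbp by these values (r = -0.73, exact permutation p 0.0270, adjusted over 18 relations 0.194), and without them r was 0.13. As the Dbp of wt replicate 5 was not resolved, only wt replicate 4 is read as low in Dbp here. Per3 had r = -0.79 with Arntl in these barcodes (exact permutation p 0.0323, adjusted 0.194), and 0.42 without the same libraries. The 0 of wt replicate 5 for Per3 allows up to 17.2 CPM, above the 16.1 CPM of wt replicate 4, so nothing is read from this relation.

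In ntCZC libraries the relation to Dbp was r = -0.55 (exact permutation p 0.110, adjusted 0.432, n = 9). Per2 with Arntl gave r = 0.72 (exact permutation p 0.0287, adjusted 0.392) and rho = 0.90 (exact permutation p 0.00225, adjusted 0.0401), but on 0 to 6 UMIs of Per2 in a library. The 0 of ntCZC het replicate 2 and of null replicate 3, the shallowest libraries and the lowest in Arntl, allows 8.13 and 12.6 CPM, above every ntCZC value of Per2, so that their ranks were not measured and nothing is read from the relation. The other 8 members did not pass in either measure.

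The level of Dbp moved with the library across classes. Over the 8 tissue libraries and 7 classes in which each library had enough barcodes, the share of the variance within classes (on the log2(CPM + 1) scale) that lay between libraries was 65.7% for Dbp, against a median of 25.5% and a 90th percentile of 49.7% over 9297 genes. Per2 had 46.4%, Nr1d2 35.1%, Tef 34.7%, Per1 34.3%, Nr1d1 33.6%, Per3 32.6%, Arntl 30.6%, Ciart 26.9% and Cry1 19.0%. If the classes of a library varied independently the share would be 14.3%. Dbp was thus at the 97.2 percentile and Cry1 at the 30.1 percentile of genes, as a description of these libraries.

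**Figure D5:**
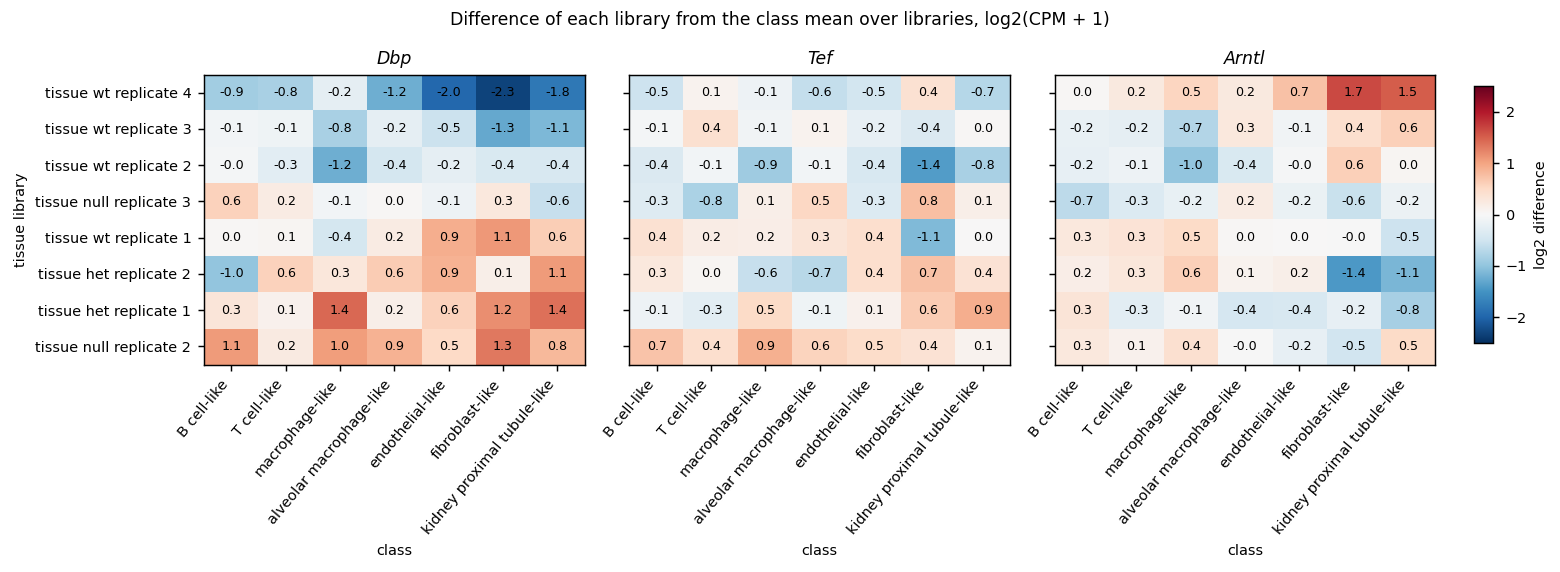
Difference of each tissue library (rows) from the mean of its class over libraries (columns), in log2(CPM + 1), for Dbp, Tef and Arntl; blue is below and red above the class mean. Dbp is below the mean in 7 of 7 classes in tissue wt replicates 2, 3 and 4 and above it in 7 of 7 in tissue het replicate 1 and null replicate 2.

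The libraries low in Dbp were low in immune, stromal and epithelial classes alike. The part of free RNA, shared by all barcodes of a library, in this agreement across classes was not tested. In tissue wt replicate 4 Dbp lay below the class mean by 1.31 on average, with a log2 difference of -2.31 in fibroblast-like, -1.96 in endothelial-like, -1.79 in kidney proximal tubule-like, -0.87 in B cell-like and -0.22 in macrophage-like barcodes. Arntl in that library was above the class mean in 7 of 7 classes, by 0.71 on average, with 1.65 in fibroblast-like and 1.52 in kidney proximal tubule-like barcodes. Tissue het replicate 1 (mean difference 0.73) and tissue null replicate 2 (0.83) stood at the other end for Dbp. Arntl in these had mean differences of -0.27, the lowest of the 8 libraries, and 0.08, and it was above the class mean in 1 of 7 and 4 of 7 classes.

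Dbp had its largest SD over libraries in kidney proximal tubule-like barcodes. Dbp was 66.9, 32.5, 19.2 and 11.8 CPM in tissue wt replicates 1 to 4, 114 and 91.1 in het and 76.3 and 28.4 in null, while Arntl was 4.97, 7.85, 12.0 and 23.5 CPM in wt replicates, 3.80 and 2.89 in the het libraries, and 10.9 and 6.69 in the null libraries. Among wt replicates 1 to 4 the libraries lower in Dbp were higher in Arntl, but wt replicates 3 and 4 rested on 8 and 3 UMIs of Dbp and 5 and 6 UMIs of Arntl, and the het libraries on 3 and 2 UMIs of Arntl. Tissue wt replicates 1 and 2, both from males of 571 days, had 66.9 and 32.5 CPM of Dbp in this class and 30 and 13.2 CPM in endothelial-like barcodes. These proximal tubule-like barcodes made up 12.4%, 13.4%, 4.2% and 1.4% of the placed barcodes of wt replicates 1 to 4 and 3.2% of those of tissue het replicate 1, so that the highest Dbp level inside the class, 114 CPM, came from a library with few of them.

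Genes most like Dbp and Arntl over the 9 tissue libraries were named by Pearson's r on the log2(CPM + 1) scale among 9272 genes with a mean of at least 10 CPM. For Dbp they included Rrp36 (0.98), Guk1 (0.98), Gpr180 (0.98) and Atn1 (0.97). Within the clock pathway Tef (0.94), Usp2 (0.94), Per3 (0.89), Nr1d2 (0.88), Rora (0.84), Hlf (0.82), Csnk1e (0.80) and Nr1d1 (0.78) followed Dbp most closely. For Arntl the most alike were Rrs1 (0.98), Cbx3 (0.97), Tial1 (0.97), Zranb2 (0.97) and Ireb2 (0.97), and the pathway gene Clock, the partner of Arntl, had r = 0.84. These values are a description of 9 libraries that differ in depth and cell makeup.

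No clock gene passed in a comparison of Nalcn genotypes, by edgeR or by DESeq2. In ntCZC, null against het, 1 of 10106 genes (0.0099%) passed and 0 of 9 clock genes tested did. At an unadjusted p under 0.05 the edgeR test gave 948 genes, and DESeq2 called 111 after adjustment. Nr1d2 had the smallest p, with 4.41, 29.8, 54.1 and 33.7 CPM in het and 19.8, 11.1, 16.8 and 15.9 CPM in null (log2 change -1.38, SE 0.51, edgeR p 0.0218, adjusted p 0.429). The het libraries lay on both sides of the null libraries. The ntCZC wt library, without a replicate in the test, was at 11.9 CPM of Nr1d2.

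In tissue, genotypes were compared inside 4 classes, as the mean of het and null against wt, and the comparisons share libraries. In endothelial-like barcodes 0 of 12931 genes passed (0.0%; 1024 at an unadjusted edgeR p under 0.05, 68 by DESeq2 after adjustment). Dbp had a log2 change of 0.89 there (SE 0.34, edgeR p 0.0272, adjusted p 0.581) and Arntl of -0.38 (SE 0.20, adjusted p 0.706). The wt libraries spanned 3.27 to 30 CPM of Dbp and so covered the whole range of the 4 libraries with a Nalcn allele.

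The other classes gave the same count. In B cell-like barcodes 0 of 8808 genes passed (0.0%; 593 unadjusted, 7 by DESeq2), with Nr1d2 at 0.89 (SE 0.26, edgeR p 0.00424, adjusted p 0.682), Cry1 at 0.79 (SE 0.27, p 0.0109, adjusted 0.710) and Dbp at 0.79 (SE 0.39, p 0.0623, adjusted 0.760). In T cell-like barcodes 0 of 8035 passed (0.0%; 421 unadjusted, 5 by DESeq2), and the 7 clock genes tested ran from -0.63 for Per3 to 0.11 for Per1. In fibroblast-like barcodes 0 of 4758 passed (0.0%; 247 unadjusted, 2 by DESeq2), with Tef at 1.28 (SE 0.36, edgeR p 0.0026, adjusted p 0.527). Tef in fibroblast-like barcodes was 17.2, 13.9, 29.4 and 49.7 CPM in tissue wt replicates 1 to 4, 59.8 and 64.2 in het and 48.9 and 65.1 in null, so that wt replicate 4 reached into the range of the latter.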

How the data were processed

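The genes and lists were chosen with earlier results of these data known. The authors sequenced Chromium 3′ version 3 libraries, mapped them to mm10 with Cell Ranger (the matrix headers name version 3.0.2, the submitters' processing notes 2.1.1) and deposited matrices of UMI counts per gene and barcode, without normalization. The notes also list Seurat. Hashtag counts, which mark the organ, were not used here. Counts were summed per library over passing barcodes and, within tissue, per marker-gated class with at least 20 barcodes and, for levels, 100000 UMIs. Doublets were kept, and Scrublet (scanpy 1.11.5) served as an alternative for tissue.

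Comparisons used the edgeR (4.0.16, R 4.3.3, with limma 3.58.1) quasi-likelihood test, scaled by TMM and filtered with filterByExpr, with sex in the model and p-values adjusted by Benjamini and Hochberg over all genes tested, at 0.05. The procedure was tested on simulated data. Relations across libraries and differences between classes used exact two-sided permutation tests (scipy 1.17.1), on log2(CPM + 1) values. Named were all 10 members, the pathway genes that passed, and the 5 genes most like Dbp and like Arntl, apart from items that are not reported here. In 25 pairs of replicates the counts differed by a chi-square of at least 4.61 per degree of freedom, so none was merged. Intervals and the limit of 3 counts cover counting error only. Alternatives were RLE scaling, DESeq2 (1.42.0), no filter, no sex covariate, a replicate block, other barcode filters (none, or 500 or more genes with no more than 10% mitochondrial UMIs), a pseudocount of 5, averaging of libraries of the same genotype, age and sex, and leaving out each library. Restricting to leukocyte-like classes, with or without alveolar macrophages, to endothelial-like barcodes or to males, with or without library A, was added after the data were seen. The stated p-values measure the spread between libraries, which may be technical where libraries share a mouse. Gene positions come from GENCODE for mm10 and promoter sequences from RefSeq.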

Additional observations from a re-analysis of the deposited data

Results flagged for a closer look

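In groups of 4 or 5 libraries, 70 sets of values were searched for a library far from the others. This singled out 5, a number near the 1 in 20 that chance gives. Over whole libraries these were Per2 in tissue wt replicate 1 (14.8 CPM, the other wt libraries 8.55 to 9.87), Cry1 in tissue wt replicate 3 (23.0 CPM, the others 18.4 to 19.6) and Ciart in ntCZC null replicate 4 (15.1 CPM, the others 2.53 to 4.2). In B cell-like barcodes they were Dbp in tissue wt replicate 4 (5.01 CPM, the other wt libraries 9.46 to 10.2) and Nr1d2 in the same library (15.2 CPM, the others 20.9 to 22.1).

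The tissue library without a group called B, which entered no comparison, lay above every tissue wt library in Per1 (79.9 CPM, highest wt library 63.0), Cry1 (31.7 against 23.0) and Ciart (10.3 against 9.41). Its 14 immediate early genes summed to 10044 CPM, against 5302 to 7162 in the tissue wt libraries. Their part in the Per1 value was not tested.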

How the results depend on the processing

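Of the log2 changes recomputed under the alternatives for single clock genes, 899 stayed on their side of the threshold, and 842 of these also kept their sign. The other 57, in 22 combinations of gene and comparison, changed sign without passing in either setting. A further 13 newly passed, 13 no longer passed and 3 reversed with a pass in 1 of the settings. Between whole ntCZC and tissue libraries 5 to 8 clock genes passed when each library was left out in turn, 2 passed in leukocyte-like classes only, and 1 in these without alveolar macrophage-like barcodes. Cry1 became called in nonclassical monocyte-like barcodes without the count filter, a count of 1, and the replicate block also gave 1, that of Per1. In B cell-like barcodes the count was 1 under DESeq2 and without the filter, that of Cry1, and 1 with the replicate block, that of Per1. It was 0 to 1 when leaving out each library. Among ntCZC libraries 1 relation to Arntl, that of Per2 (r = 0.81, permutation adjusted p 0.0418, n = 10), passed over all deposited barcodes, which brings in ntCZC wt replicate 3, on 0 Per2 UMIs in some libraries. Tef reversed to 0.025 in leukocyte-like classes. With barcodes of at least 500 genes Tef no longer passed between whole libraries (-0.52, edgeR adjusted p 0.056). The cause was not tested.

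Deviations of libraries with the same replicate number correlated at -0.17 to 0.16 over 35 pairs, 2 of them above 0.1. Pairs in the comparisons of genotypes joined libraries of different genotypes, which cannot come from 1 mouse. For pairs of the same genotype such values cannot show whether they did. Some of these share genotype, age and sex, as ntCZC and tissue wt replicate 1 do. Others differ in age, as ntCZC het replicate 1 (610 days) and tissue het replicate 1 (551 days) do. With the number as a replicate block Per1 reversed to -0.084 between whole libraries (edgeR adjusted p 0.891). There Cry1 no longer passed (-0.79, edgeR adjusted p 0.0972) and Nr1d2 newly passed (-1.69, 0.000725). In that setting Per1 passed as lower in ntCZC in nonclassical monocyte-like (-1.61, edgeR adjusted p 0.0220) and B cell-like barcodes (-2.22, 0.0155). The block called 5314, 483 and 644 genes in whole libraries, nonclassical monocyte-like and B cell-like barcodes, against 6682, 1286 and 2080 without it.

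Over all genes, dropping the filter called 10260, 3915 and 3729 in the same comparisons and RLE scaling or DESeq2 moved the median change between whole libraries from -0.08 to -0.16, with 2569 higher and 4029 lower or 2694 and 4171, against 2929 and 3753. Between genotypes DESeq2 called 111 genes in ntCZC and 68, 7, 5 and 2 in endothelial-, B cell-, T cell- and fibroblast-like barcodes. Dropping the filter called 22 in ntCZC and 26, 120, 71 and 58 in those classes, and the block called 39, 9 and 39 in the last 3. Leaving out each library gave 0 to 74, 0 to 34, 0 to 25, 0 to 17 and 0 to 12. Depth limits Per2, Per3 and Dbp in ntCZC, with 33, 52 and 73 UMIs over 9 libraries.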

Other observations

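The tissue libraries without a group held Arntl at 19.5 CPM (A) and 20.4 CPM (B), between tissue wt replicates 4 and 5 and the other 7 libraries. Dbp was 10.1 CPM in A and 5.10 CPM in B. In endothelial-like barcodes Arntl was 48.0 CPM in A and 27.3 CPM in B, and Dbp 11.6 and 4.14 CPM. With both included, r of Arntl with Dbp over 11 libraries was -0.70 (permutation p 0.0194, adjusted over 18 relations 0.172) and -0.44 without tissue wt replicates 4 and 5.

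In the PBMC library Arntl was 18.7 CPM, Per1 64.7, Per2 2.34, Per3 3.12, Cry1 12.5, Ciart 3.12, Nr1d1 1.56, Nr1d2 16.4, Dbp 9.36 and Tef 17.2 CPM. These came from 1 library and were not tested. In these unsorted blood cells of a younger mouse Per2, Per3, Cry1, Ciart, Nr1d1 and Nr1d2 were below the lowest tissue library with a group. How many of all genes were so is not given here.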
